A study of Mus musculus with 32 samples.

Results

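The 5 transporters that bring bile acids and other organic anions from sinusoidal blood into the hepatocyte were followed in the livers of wild type (WT) and *Cyp2c70* KO mice. They were the rows of the deposited gene table named Slc10a1 (ENSMUSG00000021135), Slco1a1 (ENSMUSG00000041698), Slco1a4 (ENSMUSG00000030237), Slco1b2 (ENSMUSG00000030236) and Slco2b1 (ENSMUSG00000030737), 5 of 54532 genes, and all 5 passed the filter on low counts in every comparison. Liver RNA of 32 C57BL/6 mice aged 12 weeks was sequenced, with 4 mice in each of 8 groups: female or male, WT or *Cyp2c70* KO, on chow or on chow containing SC-435. The KO mice carry a CRISPR-Cas9 deletion of exon 2 of *Cyp2c70* in a line bred from 1 founder, so the whole body lacks the enzyme, and both genotypes share the strain. SC-435, an inhibitor (IBATi) of the ileal bile acid transporter IBAT, was given at 0.006% of the diet, about 11 mg/kg/day. The labels start this diet 3 weeks after weaning, while the study's methods start it at weaning.

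Slc10a1 encodes Ntcp, which takes up conjugated bile acids together with sodium. The Slco genes encode the organic anion transporting polypeptides Oatp1a1, Oatp1a4, Oatp1b2 and Oatp2b1, which work without sodium. Oatp1b2 is the liver's main carrier for unconjugated bile acids, Oatp1a1 and Oatp1a4 carry bile acids, steroid conjugates and drugs, and Oatp2b1 carries steroid sulfates. Ntcp and several Oatps are known to be lowered in cholestasis, and Slco1a1 and Slco1a4 are known to differ between male and female mouse liver. *Cyp2c70* encodes the enzyme that makes muricholic acids, and IBAT inhibition interrupts the return of bile acids from the intestine.

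In the deposited table, whose coordinates equal those of the GRCm38 (mm10) annotation, Slc10a1 lies at chr12:80953183-80968705 on the minus strand and Slco2b1 at chr7:99657804-99711340 on the minus strand. The other 3 lie within 1 cluster on chromosome 6, with Slco1b2 at chr6:141629518-141686646 on the plus strand, Slco1a4 at chr6:141805440-141856199 and Slco1a1 at chr6:141907282-141946962, both on the minus strand. Slco1a4 and Slco1a1 are neighbours, 51083 bases apart. Counts of the pair were little exposed to shared sequence: 87 of 5321 distinct 50-base words of Slco1a1 (1.64%) and 103 of 6407 of Slco1a4 (1.61%) also occur in each other, in Slco1a5 or Slco1a6, or in the gene models Gm5724 and Gm6614. Slco1a5 and Slco1a6 were nearly silent, with at most 0.0262 and 0.159 CPM (counts relative to the TMM-scaled library total) in any mouse. Slco2b1 overlaps the antisense genes Gm15635 and Gm34280, and without stated strand use reads of the overlap cannot be told apart. These antisense genes were low, at most 3.61 and 0.986 CPM.

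The promoters of 4 members are shown because they contrast in the results below: Slc10a1 and Slco1b2, the most abundant members, and the neighbours Slco1a1 and Slco1a4, which were ordered oppositely between the sexes. Each is the RefSeq window (GRCm38.p6) from 250 bases before to 50 bases after the annotated start, 5′ to 3′ on the gene's own strand. Where a gene had several windows, the one nearest its start in the deposited gene table was used. Capitals mark a match to a searched motif.
Slc10a1, chr12:80968656-80968955, minus strand: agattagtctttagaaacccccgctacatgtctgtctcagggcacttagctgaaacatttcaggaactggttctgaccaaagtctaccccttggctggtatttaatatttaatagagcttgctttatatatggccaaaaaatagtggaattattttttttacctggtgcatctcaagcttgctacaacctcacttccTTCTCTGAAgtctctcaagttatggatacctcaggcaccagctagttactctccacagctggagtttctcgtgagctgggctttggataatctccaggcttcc
Slco1b2, chr6:141629268-141629567, plus strand: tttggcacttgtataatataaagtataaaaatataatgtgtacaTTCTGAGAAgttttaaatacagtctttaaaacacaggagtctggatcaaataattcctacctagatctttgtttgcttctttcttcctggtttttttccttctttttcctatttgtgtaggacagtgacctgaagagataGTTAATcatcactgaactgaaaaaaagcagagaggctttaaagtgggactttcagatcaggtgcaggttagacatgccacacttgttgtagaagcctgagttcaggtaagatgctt
Slco1a1, chr6:141946913-141947212, minus strand: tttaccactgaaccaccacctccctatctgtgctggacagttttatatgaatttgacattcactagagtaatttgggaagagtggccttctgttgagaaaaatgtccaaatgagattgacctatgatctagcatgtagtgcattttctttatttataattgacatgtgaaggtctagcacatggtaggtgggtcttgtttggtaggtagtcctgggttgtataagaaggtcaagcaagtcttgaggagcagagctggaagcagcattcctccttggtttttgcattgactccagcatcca
Slco1a4, chr6:141856171-141856470, minus strand: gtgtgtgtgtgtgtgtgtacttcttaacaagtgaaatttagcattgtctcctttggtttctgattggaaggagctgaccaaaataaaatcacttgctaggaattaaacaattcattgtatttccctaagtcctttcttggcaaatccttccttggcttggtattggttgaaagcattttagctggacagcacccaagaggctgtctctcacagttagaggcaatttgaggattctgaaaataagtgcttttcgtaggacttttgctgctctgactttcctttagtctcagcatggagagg

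The STAT5 core TTCNNNGAA, searched on both strands, matched as TTCTCTGAA at position -53 from the start in Slc10a1 and as TTCTGAGAA at -206 in Slco1b2. This core occurs in 8.3% of the 32851 RefSeq windows of this length. The HNF1 half-site GTTAAT matched at -66 in Slco1b2 and occurs in 7.1% of windows. This half-site is also part of the full HNF1 palindrome. The HNF1 palindrome, the inverted repeat IR1 bound by FXR and the direct repeat DR1 matched no member, and occur in 0.00913%, 0.00913% and 0.0396% of windows. The windows of Slco1a1, Slco1a4 and Slco2b1 held none of these letters, which says nothing about binding elsewhere.

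Libraries held 36476021 to 44771350 counts, with a median of 42232543, and the 5 members had at least 259 counts in every mouse. *Cyp2c70* matched every label, with 109.8 to 187 CPM in KO mice and 275 to 851 CPM in WT mice. The count covers the whole gene, not exon 2 alone. TMM scaling factors were 1.070 to 1.195 in chow-fed KO females, against 0.959 to 1.030 in WT females on chow. In chow-fed KO males they were 1.007 to 1.285. A higher factor lowers the CPM. One library stood apart: WT male replicate 1 on chow had a TMM scaling factor of 0.639 against 0.955 to 1.011 in its group, and a mean correlation with its group of 0.918 against 0.962 to 0.964. Its Slco1a1, Slco1a4 and Slco1b2 also lay far below its group and its Slco2b1 above it, while its Slc10a1 lay within the group. Scaled by library size alone, its Slc10a1 lay below the group, at 446 CPM against 597 to 743 CPM. The edgeR log2 fold changes of the members that use chow-fed WT males are given with and without this library. Results of the marker and gene lists are given only with it. All 14 hepatocyte markers were detected in all groups. In whole liver, a level lowered by fewer hepatocytes and one lowered by less RNA per hepatocyte cannot be told apart.

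Slc10a1 and Slco1b2 made up most of the uptake transporter RNA in every group. Per length of gene, WT females on chow had 287 ± 49.5 (SD, n = 4) CPM per kb of Slc10a1 and 215 ± 28.2 of Slco1b2. Slco1a1, Slco1a4 and Slco2b1 stood at 26.6 ± 19.7, 27.9 ± 6.01 and 27.3 ± 3.93 CPM per kb in the same mice. The means of these 3 minor members lay within 1 SD of each other in WT females. In WT males on chow Slco1a1 reached 96.1 ± 44.9 CPM per kb, while Slco1a4 stood at 11.9 ± 4.104, and without replicate 1 they stood at 119 and 13.9 CPM per kb.

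The summed level of the 5 members per length fell into a like pattern in both sexes, given here as a description. It was 585 ± 72.9 CPM per kb in WT females on chow, 364 ± 86.4 in KO females on chow, 631 ± 26.3 in WT females on SC-435 and 588 ± 12.9 in KO females on SC-435. In males the same groups had 673 ± 144, 399.9 ± 119, 631 ± 134 and 586 ± 19.999 CPM per kb. WT male replicate 1 on chow, at 459 CPM per kb, was the lowest of its group. The chow-fed KO groups had the lowest mean in each sex, and KO mice on SC-435 had the smallest spread. Slc10a1 alone gave 39.2% to 55.6% of the sum across group means, and Slco1b2 30.9% to 44.6%.

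**Figure D1:**
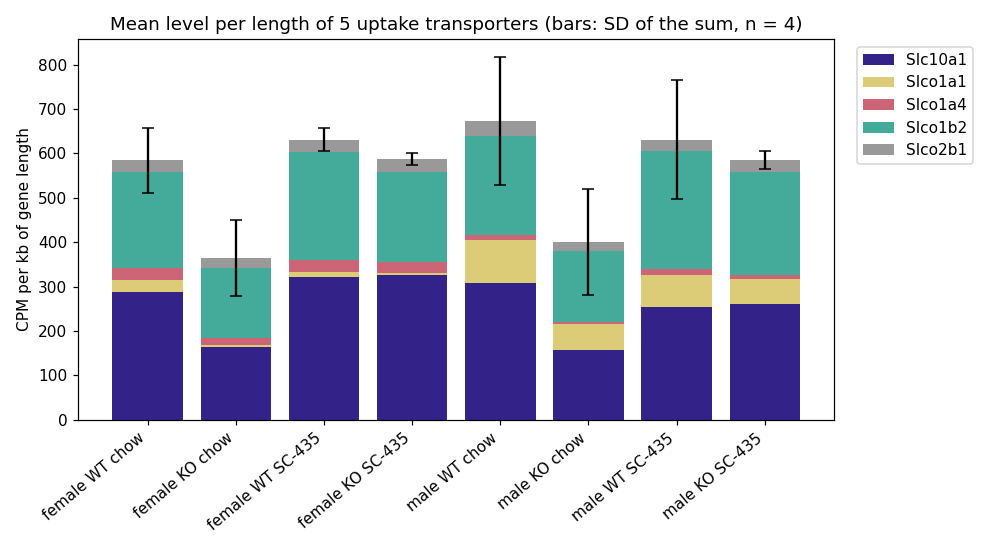
Mean level of each uptake transporter in CPM per kb of gene length (stacked bars) in the 8 groups, with the SD of the summed level over 4 mice as error bars. The chow-fed KO bars are the lowest in each sex, 364 in females and 399.9 in males, and Slc10a1 and Slco1b2 fill most of every bar.

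The first comparison asked what loss of *Cyp2c70* does to the uptake carriers on chow. All 5 estimates lay below 0 in both sexes, with a median log2 fold change of -0.77 in females and -0.73 in males. Over all genes tested the medians were -0.02 and 0.04. The 14 hepatocyte markers were also shifted down, with medians of -0.41 and -0.59. In females Slco1a1 fell to 16.9% of the WT mean and Slco1b2 to 73.2%, and these 2 passed at an adjusted p under 0.05 (edgeR quasi-likelihood test, Benjamini-Hochberg adjustment over all genes tested). The background was 14.9% of 16205 genes in either direction, and 5.05% for lower genes. In males none of the 5 passed, against a background of 1.08% of 15862 genes. In males 3 members had an unadjusted p under 0.05, and DESeq2 passed 2 and limma voom with quality weights 5. The shares of all genes under these rules are not given here, so these counts have no background beside them. In TMM-scaled CPM the groups did not overlap for Slco1a1 and Slco1b2 in females, where 10.5% of genes were lower without overlap. In males they did not overlap for Slc10a1 and Slco2b1, where 7% of genes were lower without overlap.

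Slc10a1 in females measured 603, 539, 596 and 789.6 CPM in the 4 WT mice and 290.4, 249, 325 and 578 CPM in the 4 KO mice. The KO mice other than replicate 4 lay well below every WT mouse, and replicate 4 lay among the WT values. The log2 fold change was -0.79 ± 0.24 (SE), adjusted p = 0.0546, just outside the threshold. Without KO replicate 4 it was -1.08, adjusted p = 0.00146. In males Slc10a1 measured 697, 762, 668 and 591 CPM in WT and 426, 444, 309.7 and 206 CPM in KO mice. The male groups did not overlap with TMM scaling. By library size alone WT replicate 1 (446 CPM) lay below KO replicate 2 (447 CPM). The male log2 fold change of -0.94 ± 0.25 had an adjusted p of 0.119. Without WT male replicate 1 it was -0.93 (adjusted p = 0.0564), and DESeq2 on all 8 mice gave -0.99 (adjusted p = 0.0108).

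Slco1a1 showed the largest change of the 5 members in females. It measured 184, 267, 60.6 and 50.04 CPM in WT and 14.97, 17.0, 22.3 and 40.8 CPM in KO mice. The groups did not overlap, although the WT mice ranged from 50.04 to 267 CPM among themselves. The log2 fold change was -2.55 ± 0.54, adjusted p = 0.0129. In males the WT mice had 152, 626, 638 and 613 CPM and the KO mice 408, 438, 241 and 134 CPM. WT replicate 1 lay within the KO range, and the other 3 WT mice lay above every KO mouse. The male log2 fold change was -0.70 ± 0.49 (adjusted p = 0.512) with that mouse, and -1.01 (adjusted p = 0.109) without it. The difference between the sexes in the effect of genotype was -1.82 ± 0.78 on the log2 scale and did not pass, with an adjusted p of 0.734, where 0.0235% of 17026 genes did. Without WT male replicate 1 it was -1.52 (adjusted p = 0.383).

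Slco1a4, the neighbouring gene, measured 184, 125, 189 and 217 CPM in WT females and 105, 99.9, 64.1 and 147 CPM in KO females. One KO mouse, replicate 4, overlapped the WT range. The log2 fold change was -0.77 ± 0.24, adjusted p = 0.0541, and -0.95 (adjusted p = 0.0122) without that mouse. WT males had 36.7, 91.2, 85.7 and 90.6 CPM and KO males 17.6, 37.6, 24.8 and 21.7 CPM. WT replicate 1 lay within the KO range, and the other 3 WT mice lay above every KO mouse. The male log2 fold change was -1.54 ± 0.34 (adjusted p = 0.0734), and -1.78 (adjusted p = 0.00923) without that mouse.

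Slco1b2 had the tightest female groups, with 993, 960.0, 1027 and 1266 CPM in WT and 711, 787, 793 and 817 CPM in KO mice. No KO female reached any WT female, and the log2 fold change was -0.43 ± 0.12, adjusted p = 0.0336. It no longer passed without WT replicate 3 or 4 or KO replicate 1, 2 or 3 (log2 fold change -0.45 to -0.33, adjusted p 0.0663 to 0.103). Nor did it pass in edgeR when scaled by library size alone (-0.24, adjusted p = 0.197). In males WT mice had 267, 1309, 1329 and 1459.9 CPM and KO mice 820.2, 1013, 789 and 537 CPM. WT replicate 1 had the lowest value of all 32 mice. The male log2 fold change was -0.43 ± 0.46 (adjusted p = 0.687) with it and -0.76 (adjusted p = 0.0528) without it.

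Slco2b1 had the smallest estimate in females, with 161, 144, 150.0 and 196 CPM in WT and 102, 114, 109.9 and 195 CPM in KO mice. KO replicate 4 lay level with the highest WT mouse, and the log2 fold change of -0.30 ± 0.20 had an adjusted p of 0.336. Without KO replicate 4 it was -0.53 (adjusted p = 0.0164), so that all 5 members then passed in females. That mouse was the highest of its group for all 5, and the share of all genes without it is not given here. In males Slco2b1 measured 319, 186, 169 and 152 CPM in WT and 138, 136, 115 and 95.4 CPM in KO mice. Here WT replicate 1 was the highest value, opposite to its low values of the other Slco genes, and the groups did not overlap. The log2 fold change was -0.73 ± 0.26 (adjusted p = 0.218), and -0.45 (adjusted p = 0.0784) without that mouse. Without WT male replicate 1, Slco1a4 was the 1 member to pass in males, in a fit whose share of all genes is not given here.

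**Figure D2:**
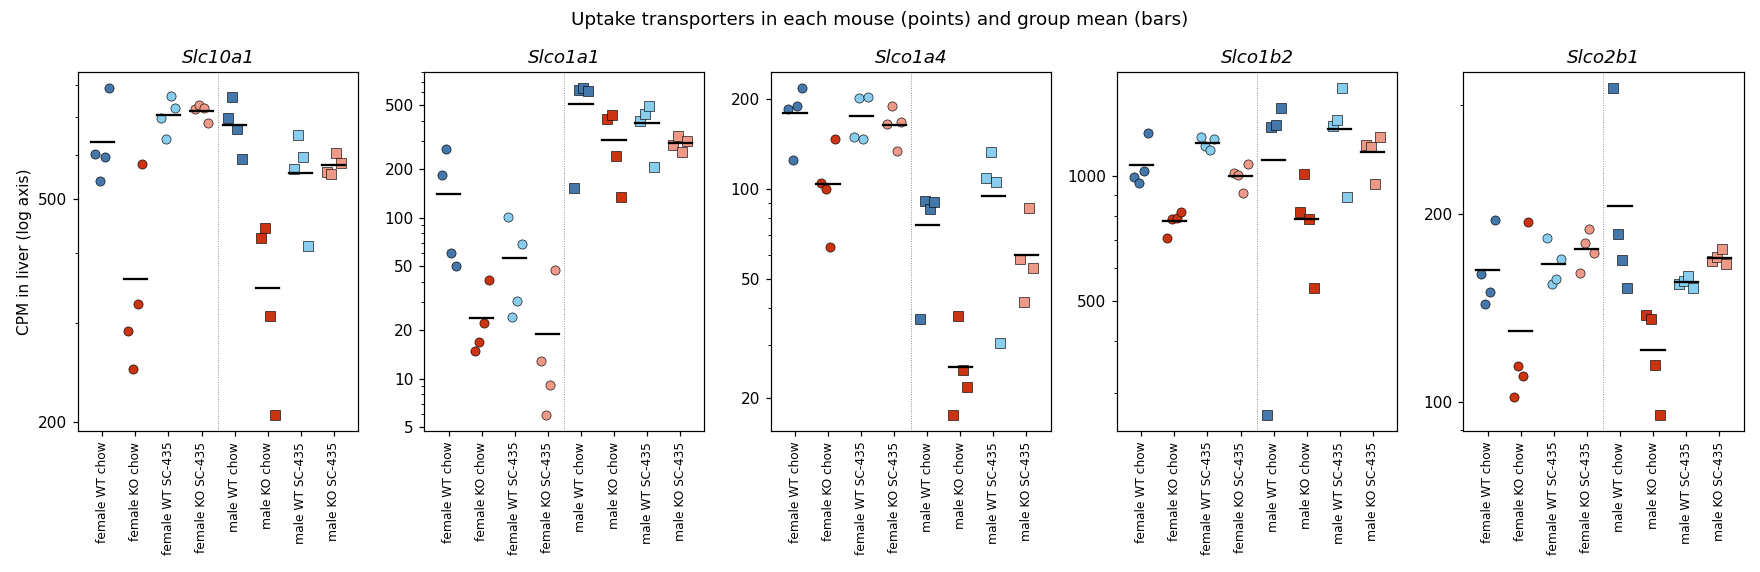
CPM (log axis) of the 5 uptake transporters in each of the 32 mice, in 8 groups, circles for females and squares for males, with each group mean as a bar. Chow-fed KO mice hold the lowest Slc10a1 means (361 CPM in females, 346 in males), and 1 chow-fed WT male lies far from its group for Slco1a1 (152 CPM) and Slco1b2 (267 CPM).

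Markers of other liver cells moved with the chow-fed KO groups. The sum of 12 cholangiocyte markers was 61.7 to 94.1 CPM in WT females and 182 to 388 CPM in KO females on chow, and 46.8 to 57.0 CPM in WT males and 172 to 1190.3 CPM in KO males. On SC-435 it was 127 to 176 CPM in KO females and 70.2 to 81.6 CPM in KO males. No marker was at 0 in the chow-fed groups. Of the markers tested in KO females against WT females on chow, 7 of 10 cholangiocyte, 10 of 12 macrophage, 5 of 12 stellate cell, 1 of 11 lymphocyte and 0 of 12 endothelial genes were higher, and 8 of 14 hepatocyte genes were lower and 1 higher. The macrophage sum was 519 to 642 CPM in WT and 847 to 1211 CPM in KO females, and the stellate cell sum 318 to 434 CPM and 486 to 1081 CPM. The summed hepatocyte markers were 114266 to 145955 CPM in WT and 75023 to 98407 CPM in KO females. In KO against WT males on chow 4 of 10 cholangiocyte genes were higher, and no other marker list had a passing gene. With SC-435 in KO mice 3 of 10 cholangiocyte, 11 of 12 macrophage, 4 of 12 stellate cell, 1 lymphocyte and 1 hepatocyte gene were lower in females, and 8 of 10 cholangiocyte, 2 macrophage and 7 stellate cell genes were lower and 3 endothelial genes higher in males. For KO against WT mice on chow 14.9% of all genes passed in either direction in females and 1.08% in males. With SC-435 in KO mice 17.8% passed in females and 17.2% in males. The part of these cells in the results for the uptake members was not tested.

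Some mice at the edge of their groups for the members also stood at an edge of the marker sums, in differing directions. Chow-fed KO female replicate 4, the highest of its group for all 5 members, had the lowest cholangiocyte sum of the group (182 CPM), the lowest stellate cell sum (486 CPM, others to 1081) and the highest hepatocyte sum (98407 CPM), but not the lowest macrophage sum (889.5 CPM, lowest 847 CPM). Chow-fed KO male replicate 4, the lowest of its group for Slc10a1, Slco1a1, Slco1b2 and Slco2b1, had the highest cholangiocyte (1190.3 CPM), macrophage (1686 CPM) and stellate cell (1367 CPM) sums of all 32 mice and the lowest hepatocyte sum (63948 CPM). WT male replicate 1 on chow had the highest hepatocyte sum of all (231646 CPM) while its Slco1b2 was the lowest. KO female replicate 4 on SC-435, the highest of its group for Slco1a1, had the group's highest cholangiocyte (176 CPM), macrophage (673 CPM) and stellate cell (534 CPM) sums. These are single mice, and a link between the sums and the members was not tested.

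**Figure D3:**
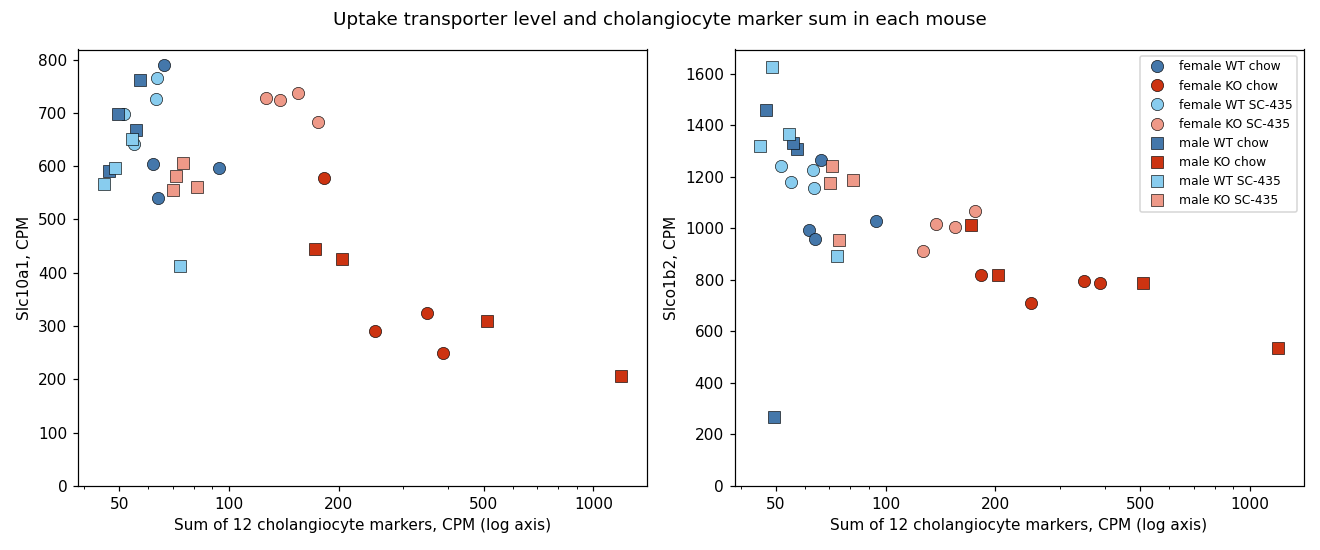
Slc10a1 and Slco1b2 (CPM, axis from 0) against the sum of 12 cholangiocyte markers (CPM, log axis) in each of 32 mice. Chow-fed KO mice spread to the right, up to 1190.3 CPM in a male with 206 CPM of Slc10a1 and 537 CPM of Slco1b2. Not all of them are low: female replicate 4 holds 578 CPM of Slc10a1 and male replicate 2 holds 1013 CPM of Slco1b2. A chow-fed WT male lies apart at 267 CPM of Slco1b2.

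SC-435 was then compared with chow within the KO mice, to ask whether IBAT inhibition moves these genes. Slc10a1 rose in both sexes, to 199% of the chow mean in females and 166% in males. Slco1b2 rose in females, and Slco1a4 and Slco2b1 rose in males. Slco1a1 had estimates near or below 0 in both sexes. Thus 2 members passed in females, against 8.56% of 16332 genes that passed as higher, and 3 in males, against 8.8% of 15984 genes. Counted in either direction 17.8% and 17.2% of genes passed. In TMM-scaled CPM the groups did not overlap for Slc10a1 and Slco1b2 in females, where 11.8% of genes were higher without overlap. In males they did not overlap for Slc10a1, Slco1a4 and Slco2b1, where 15.1% of genes were higher without overlap.

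KO females on SC-435 had 724, 738, 727 and 683 CPM of Slc10a1, all above every chow-fed KO female. The log2 fold change was 0.98 ± 0.22, adjusted p = 0.0164. KO males on SC-435 had 559.9, 556, 605 and 581 CPM, again all above the chow-fed KO mice. The male log2 fold change was 0.70 ± 0.21, adjusted p = 0.0467. The call was lost without treated female replicate 2 (0.97, adjusted p = 0.0506), without any 1 treated male (0.69 to 0.72, adjusted p 0.0808 to 0.108) and without chow-fed male replicate 3 (0.66, adjusted p = 0.116). The coefficient of variation of Slc10a1 between KO mice was 41.2% on chow and 3.36% on SC-435 in females, and 32.1% and 3.94% in males.

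Slco1a4 measured 58.1, 41.8, 86.2 and 54.3 CPM in KO males on SC-435, and the lowest of these lay above the highest chow-fed KO male. It rose by 1.21 ± 0.26 on the log2 scale (adjusted p = 0.0175), to 236% of the chow mean. Without chow-fed replicate 3 its adjusted p was 0.0506. In KO females it measured 164, 189, 134 and 167 CPM on SC-435, and the lowest of these overlapped chow-fed replicate 4. The female estimate was 0.64 ± 0.21 (adjusted p = 0.0565), and 0.85 (adjusted p = 0.00441) without that chow-fed mouse. DESeq2 gave 0.65 (adjusted p = 0.0129) with all 8 mice.

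Slco1b2 in KO females on SC-435 measured 1016, 1004, 909.9 and 1067 CPM, above all chow-fed KO females, a log2 fold change of 0.35 ± 0.09 with an adjusted p of 0.0256. It did not pass without chow-fed replicate 1 or 2 or treated replicate 1, 2 or 4 (0.31 to 0.35, adjusted p 0.0581 to 0.0737). Nor did it pass in edgeR when scaled by library size alone (0.19, adjusted p = 0.126). With that scaling treated replicate 3 (917.2 CPM) lay just below chow-fed replicate 3 (917.5 CPM). KO males on SC-435 had 1185, 1176, 955 and 1243 CPM. The lowest of them fell below the highest chow-fed KO male, and the estimate of 0.50 ± 0.18 had an adjusted p of 0.0813.

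Slco2b1 in KO males on SC-435 lay within a narrow range of 168, 171, 176 and 166 CPM, above all chow-fed KO males, with a log2 fold change of 0.46 ± 0.11 and an adjusted p of 0.0247. It did not pass without any 1 treated male or chow-fed replicate 3 (0.44 to 0.48, adjusted p 0.0540 to 0.0713). KO females on SC-435 had 161, 180.1, 189.7 and 173 CPM. Chow-fed KO female replicate 4, at 195 CPM, lay above them all, and the estimate of 0.42 ± 0.18 had an adjusted p of 0.137. Without that mouse it was 0.68 (adjusted p = 0.000373), and 4 members then passed in females. The share of all genes in that fit is not given here.

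Slco1a1 did not follow the other members. KO females on SC-435 had 12.8, 5.98, 9.14 and 47.6 CPM, and the log2 difference from chow was -0.34 ± 0.58 (adjusted p = 0.723). Without treated replicate 4, the mouse at 47.6 CPM, it was -1.36 and passed (adjusted p = 0.0394). KO males on SC-435 had 283, 324, 257 and 301 CPM, within the range of the chow-fed KO males, and the log2 difference was -0.09 ± 0.31 (adjusted p = 0.855). The sexes did not differ beyond their spread in the effect of SC-435 on any member in KO mice: the 5 adjusted p-values of that interaction ran from 0.540 to 0.952, against a background of 0.211% of 17069 genes that passed. None had an unadjusted p under 0.05, and DESeq2 and voom passed 0.

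**Figure D4:**
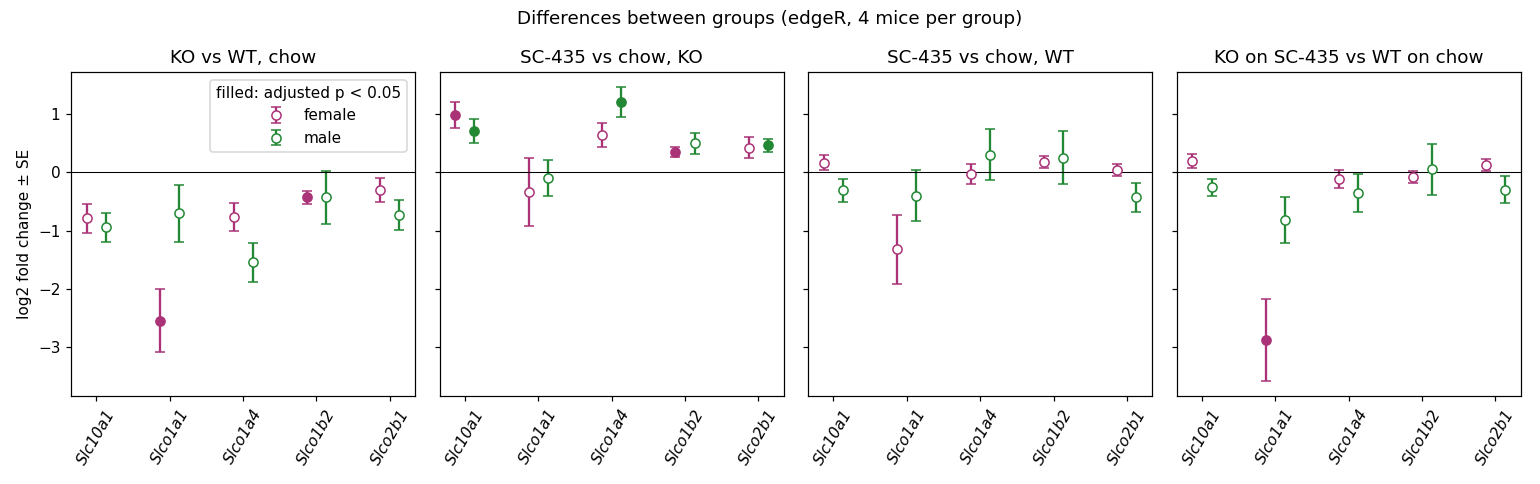
Log2 fold change ± SE (edgeR, 4 mice per group) of each uptake transporter in females and males for 4 comparisons, filled where the adjusted p was under 0.05. On chow all 10 KO estimates lie below 0, and Slco1a1 in females (-2.55) is the lowest. With SC-435 in KO mice the estimates of the members other than Slco1a1 lie above 0, from 0.35 to 1.21.

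In WT mice SC-435 was not followed by a passing change of any member in either sex. In females 4.28% of 15739 genes passed, and no member did so at an adjusted or unadjusted p under 0.05 with edgeR, nor with DESeq2 or voom. Slc10a1 measured 699, 641, 765 and 726 CPM, Slco1a4 149, 201, 147 and 203 CPM, Slco1b2 1243, 1179.9, 1155 and 1224 CPM, and Slco2b1 183, 155, 158 and 169.6 CPM in WT females on SC-435. All 4 overlapped the chow-fed WT females. Slco1a1 measured 101, 24.3, 30.5 and 68.2 CPM, with a log2 difference of -1.32 ± 0.59 and an adjusted p of 0.253. Its mean was 39.96% of that on chow, but the ranges overlapped.

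In WT males on SC-435, replicate 4 was the lowest of its group for all 5 members. Slc10a1 measured 567, 650.0, 596 and 413 CPM, Slco1a1 399.9, 442, 494 and 207 CPM, and Slco1a4 109, 133, 106 and 30.5 CPM. Slco1b2 measured 1317, 1367, 1626 and 891 CPM, and Slco2b1 155, 157, 159 and 152 CPM. The log2 differences from chow ran from -0.43 for Slco2b1 to 0.31 for Slco1a4, with adjusted p-values of 0.836 to 0.904, and 0.0394% of 15211 genes passed. No member had an unadjusted p under 0.05, DESeq2 passed 0 and voom 1. Without WT male replicate 1 on chow the differences were -0.28 for Slc10a1, -0.70 for Slco1a1, 0.08 for Slco1a4, -0.08 for Slco1b2 and -0.12 for Slco2b1, with adjusted p-values of 0.175 to 0.931.

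Whether the effect of SC-435 differed between KO and WT mice was tested as an interaction. In females the estimate for Slc10a1 was 0.81 ± 0.27 (adjusted p = 0.107), and in males 0.99 ± 0.29 (adjusted p = 0.180). Slco2b1 had 0.38 ± 0.22 (adjusted p = 0.360) in females and 0.87 ± 0.27 (adjusted p = 0.205) in males. Without WT male replicate 1 on chow the male estimates were 0.96 (adjusted p = 0.1005) and 0.56 (adjusted p = 0.0663). No member passed in either sex with edgeR, where 2.64% and 0.0906% of all genes passed by adjusted p. In each sex 2 members had an unadjusted p under 0.05, Slc10a1 and Slco1a4 in females and Slc10a1 and Slco2b1 in males. The female estimate for Slco1a4 was 0.67 ± 0.29 (adjusted p = 0.211). DESeq2 put Slc10a1 past the threshold in both, with adjusted p-values of 0.0430 in females and 0.0452 in males. Without chow-fed KO female replicate 4, Slc10a1 (1.12, adjusted p = 0.000812) and Slco2b1 (0.63, adjusted p = 0.0109) passed in females. Shares of all genes under DESeq2 or without that mouse are not given here.

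Treated KO mice were also set against untreated WT mice, which shows how far the genes still differed after IBAT inhibition. In females Slco1a1 stayed lower, at 13.5% of the WT chow mean, with a log2 fold change of -2.88 ± 0.70 and an adjusted p of 0.0186. All 4 treated KO females were below all 4 WT females, as were 10.9% of genes, and 16% of 15881 genes passed. Without treated KO replicate 1, 2 or 3 it no longer passed (-2.74 to -2.58, adjusted p 0.0541 to 0.0597), and without replicate 4 it was -3.90 (adjusted p = 0.00488). The other 4 members lay between -0.12 and 0.19 on the log2 scale in females and did not pass, except that without WT replicate 4 Slc10a1 was higher by 0.32 (adjusted p = 0.0328). In males no member passed with edgeR, by adjusted or unadjusted p, where 0.208% of 15395 genes passed by adjusted p. DESeq2 passed none and voom 3, and their shares of all genes are not given here. Slco1a1 was at -0.81 ± 0.39 (adjusted p = 0.665), and without WT male replicate 1 at -1.11 ± 0.09 (adjusted p = 0.000282). The other 4 lay between -0.35 and 0.05 with that mouse and between -0.58 and 0.00079 without it, none past the threshold. All 4 treated KO males then lay below the 3 other WT males, at 257 to 324 against 613 to 638 CPM. This comparison shares its WT chow mice with the first and its treated KO mice with the second.

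On SC-435, KO and WT females differed in Slco1b2, which was lower in KO mice by a log2 fold change of -0.26 ± 0.06 (adjusted p = 0.0305) with no overlap, where 10.9% of 15869 genes passed and 9.34% were lower without overlap. Its mean was 83.2% of the WT mean. It did not pass without WT replicate 1 or 4 or KO replicate 1, 2 or 3 (-0.26 to -0.22, adjusted p 0.0642 to 0.0822). Slco1a1 stood at -1.56 ± 0.64 and did not pass (adjusted p = 0.148), and without KO replicate 4 it was -2.59 (adjusted p = 0.0189). Slc10a1 was at 0.02 ± 0.07, Slco1a4 at -0.09 ± 0.13 and Slco2b1 at 0.09 ± 0.07, none past the threshold. In males no member passed, with log2 differences from -0.67 for Slco1a4 to 0.12 for Slco2b1, and 0.0324% of 15434 genes passed. None had an unadjusted p under 0.05, and DESeq2 and voom passed 0. Slco2b1 was higher in every treated KO male than in any treated WT male, a pattern 2.81% of the genes shared.

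Females and males differed in Slco1a1 and Slco1a4, in opposite directions. Among chow-fed KO mice Slco1a1 was lower in females by a log2 fold change of -3.67 ± 0.45 (adjusted p = 0.00326), and males held 12.8 times the female mean. Slco1a4 was higher in females by 2.05 ± 0.29 (adjusted p = 0.00651), at 409% of the male mean. Neither gene overlapped between the sexes, as was so for 11.5% of genes, and 2.73% of 16561 genes passed. The other 3 members lay within -0.01 and 0.12 on the log2 scale and did not pass. Among chow-fed WT mice the same order held, with -1.88 ± 0.62 for Slco1a1 (adjusted p = 0.276) and 1.21 ± 0.31 for Slco1a4 (adjusted p = 0.121), where 1.49% of 15525 genes passed. Both had an unadjusted p under 0.05, DESeq2 passed both, and Slco1a4 did not overlap between the sexes, where 6.5% of genes were higher in females without overlap. Shares of all genes under DESeq2 or without 1 mouse are not given here. Without WT male replicate 1 both passed, at -2.17 (adjusted p = 0.0279) and 0.99 (adjusted p = 0.00637). With it Slc10a1, Slco1b2 and Slco2b1 were at -0.13, -0.06 and -0.37, and without it at -0.10, -0.38 and -0.07, none past the threshold.

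The ratio of Slco1a1 to Slco1a4 per length set these neighbours against each other within each liver. It ran from 3.63 to 28.2 in the 16 males and from 0.0385 to 2.59 in the 16 females, so that no female reached any male. WT females on chow ranged from 0.280 to 2.59, and chow-fed KO males from 7.49 to 28.2. Chow-fed KO males had the highest mean ratio, 15.4 ± 8.96, since Slco1a4 was lowest there. KO females on SC-435 had the lowest, 0.141 ± 0.139.

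**Figure D5:**
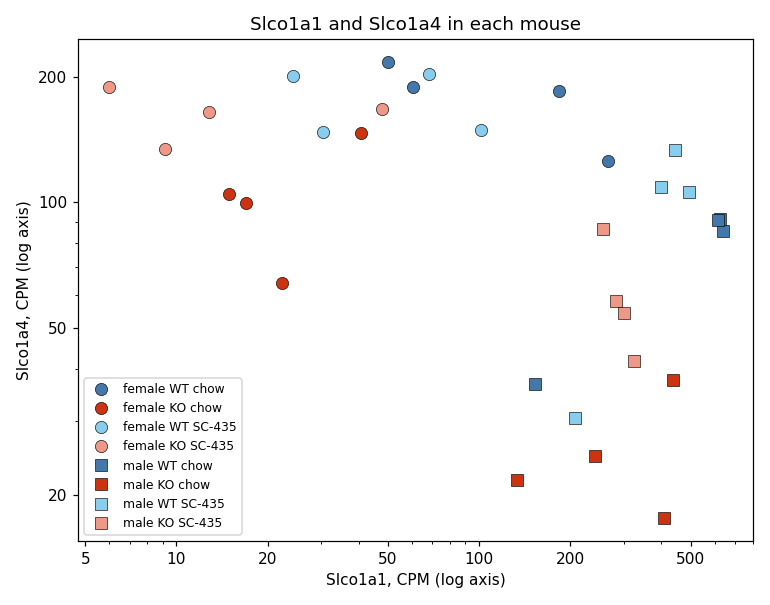
Slco1a4 against Slco1a1 (CPM, both log axes) in each of 32 mice, circles for females and squares for males. Females sit to the upper left and males to the lower right, and chow-fed KO mice hold the lowest group mean of Slco1a4 in each sex (104 CPM in females, 25.4 CPM in males).

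By group mean Slc10a1 ran from 718 CPM in KO females on SC-435 to 346 CPM in chow-fed KO males, a 2.07-fold span, and Slco1b2 from 1300.1 CPM in WT males on SC-435 to 777 CPM in chow-fed KO females, a 1.67-fold span. Chow-fed WT males averaged 1366 CPM of Slco1b2 without replicate 1, and were then its highest group. Slco2b1 ran from 207 CPM in chow-fed WT males, or 169 CPM without replicate 1, to 121 CPM in chow-fed KO males. Slco1a4 spanned 7.04-fold, from 179 CPM in WT females on chow to 25.4 CPM in chow-fed KO males. Slco1a1 spanned the most, 26.8-fold, from 507 CPM in chow-fed WT males, or 625 CPM without replicate 1, to 18.9 CPM in KO females on SC-435. In all of these orders neighbouring groups overlapped, except that the lowest group of Slco1a4, chow-fed KO males, lay wholly below the next, KO males on SC-435.

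Genes listed as other hepatocyte transporters changed in both directions in whole liver RNA, and which cells held their RNA was not tested. Of 19 other hepatocyte transporters, 18 were tested, and in KO females on chow 3 were higher and 2 lower, where 14.9% of all genes passed in either direction. The medians were -0.02 for the list and for all genes. Slc51b (log2 fold change 2.46), a subunit of the basolateral bile acid exporter, Abcb1a (1.67), a drug efflux pump, and Abcc4 (0.80), a basolateral exporter, were the higher genes. With SC-435 in KO females, where 17.8% of all genes passed, 4 were higher and 3 lower, including Slc51b (-3.81), Abcb1a (-1.36), Abcc4 (1.07) and Slc47a1 (0.81). In KO males, where 17.2% of all genes passed, SC-435 gave 3 higher and 3 lower, including Abcb1a (-1.61), Slc47a1 (0.97) and Abcc3 (0.71), while KO against WT males, where 1.08% of all genes passed, gave 0 in either direction. These shares of all genes hold for the lists that follow.

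Among 17 other Slc10 and Slco genes most were not expressed enough to be tested. In females 8 were, and Slco3a1 (0.72) was higher in KO mice on chow, and Slco2a1 (0.46) higher with SC-435. In males Slc10a2 (2.62), which encodes the IBAT itself, was higher in chow-fed KO than in WT mice, and Slco3a1 (-0.68) was lower with SC-435 in KO mice.

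Of 25 transcription factors and receptors tied to these genes, all tested, 7 were lower and none higher in KO females on chow, with a median log2 fold change of -0.32 against -0.02 over all genes. They included Cebpb (-1.55), Nr1i3 (-1.24), which encodes CAR, Nr0b2 (-0.82), which encodes the repressor SHP, and Nr1h4 (-0.48), which encodes the bile acid receptor FXR. With SC-435 in KO females 5 were higher and 1 lower, including Nr1i3 (0.84), Nr1h4 (0.76), Ahr (0.75) and Foxa2 (-0.77). In KO against WT males Esr1 (1.23), the estrogen receptor, was the 1 gene that passed. With SC-435 in KO males 5 were higher and 3 lower, including Prlr (0.87), Bcl6 (-2.23) and Nr0b2 (-1.95).

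The lists of sex-biased genes showed their labelled direction between the sexes. In chow-fed WT mice 18 of 19 tested male-biased genes were lower and 18 of 22 female-biased genes higher in females. Over all genes 1.49% passed there. The lists were chosen with earlier results of these data known, so this is not a separate check of them. In KO females on chow 7 of 19 male-biased genes were lower and 2 higher, and 6 of 22 female-biased genes were lower and 1 higher, with medians of -0.72 and -1.498 on the log2 scale against -0.02 over all genes. Elovl3 (-4.21) and Sult2a1 (-4.43), a fatty acid elongase and a bile acid sulfotransferase, were among the lower genes. With SC-435 in KO females 5 of 19 male-biased and 7 of 22 female-biased genes were higher, and 1 and 2 lower. In KO males SC-435 gave 3 higher and 4 lower of 20 male-biased genes and 7 higher and 1 lower of 14 female-biased genes. Of 21 acute phase genes 5 were higher in KO females and 3 in KO males on chow, none lower, and with SC-435 12 were lower and 1 higher in KO females and 8 lower in KO males. Lcn2, an iron-binding acute phase protein, was higher in chow-fed KO mice by 2.93 in females and 3.77 in males on the log2 scale, and Saa2, a serum amyloid A, by 2.48 and 3.14. With SC-435 the log2 fold changes of Lcn2 in KO mice were -2.69 and -2.82.

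Over all 32 mice, which share group, library and depth, the members varied in different ways among themselves. Pearson correlations of log2 CPM were highest for Slc10a1 with Slco2b1 (r = 0.82, and 0.68 after group means were removed) and lowest for Slco1a1 with Slco1a4 (r = -0.47, and 0.26 after group means were removed). Slco1b2 and Slco2b1 were at -0.03 over all mice and -0.42 within groups. These are descriptions, and the library that stood apart was among the 32.

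The protein-coding genes most like each member were sought over 32 mice among 11735 genes averaging 50 counts or more. For Slc10a1 they were Gm4756 (r = 0.93), Car5a (r = 0.91), a mitochondrial carbonic anhydrase, and Cwf19l1 (r = 0.91). Their Spearman rank correlations with Slc10a1 were lower, at 0.68, 0.74 and 0.75. For Slco1a1 they were Mup3 (r = 0.96), a major urinary protein, Hao1 (r = 0.94), a peroxisomal hydroxyacid oxidase, and Hsd3b5 (r = 0.92), a steroid dehydrogenase of male liver. Hsd3b5 shared the sex order, with 409 CPM in chow-fed WT males and 10.4 CPM in WT females, and 0.265 CPM in chow-fed KO females. For Slco1a4 they were Enpp1 (r = 0.88), Cyp2c68 (r = 0.88) and Tox (r = 0.87), all with higher means in females than in males of the same genotype and diet.

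Slco1b2 was most like Tspan12 (r = 0.96), Chuk (r = 0.95) and Nudt12 (r = 0.95), and these r held within groups (0.97, 0.95 and 0.95), where the apart-standing WT male has much weight. Slco2b1 was most like Pm20d1 (r = 0.91), Slc25a44 (r = 0.91) and Galm (r = 0.90). For Slco1a4 the r within groups fell to 0.44, 0.40 and 0.58, lower than the r over all mice, which includes the difference between the sexes.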

How the data were processed

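Poly(A) RNA libraries of 32 livers, 4 mice in each of 8 groups taken from the sample titles, were sequenced by the authors. Per the labels, mm10, HISAT2 2.0.5, featureCounts 1.5.0-p3 and DESeq2 1.20.0 were among the tools. The strand setting of counting is not given in the sources used here. The deposited table held raw counts per gene (54532 genes, 22412 with no count), which were tested here as deposited. Its 32 FPKM columns, and its columns of the authors' own fold changes and p-values, were not used.

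The study tested with DESeq2, which is an alternative here. Each of 12 comparisons of 2 groups and 4 interactions was fitted on its own libraries in edgeR 4.0.16 (R 4.3.3: filterByExpr, TMM, quasi-likelihood test, Benjamini-Hochberg over all genes tested). A gene passed at an adjusted p under 0.05. The shares of all genes that passed are those of these fits with all their mice. They do not hold for unadjusted p, for the other settings or for fits without 1 mouse. SE is the log2 fold change divided by the square root of F. Levels are CPM scaled by TMM over 32 libraries, and per kb of deposited gene length where genes are compared. The tests were tested on simulated data. The p-values cover the spread between the mice of a group, which the labels number 1 to 4.

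Also tried were DESeq2's median-of-ratios scaling, scaling by library size alone, no filter on low counts, DESeq2 1.42.0, a replicate block, all 32 libraries in 1 fit, each library left out in turn and, chosen after seeing the data, limma 3.58.1 voom with quality weights. No 2 libraries of a group were duplicates (48 pairs, lowest chi-square per gene 20.3).

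The members and lists were chosen with earlier results of these data known. Named were the members, *Cyp2c70*, at most 4 passing genes of a list by largest log2 fold change (mean of at least 50 counts), and the 3 genes most like each member. Lists covered other Slc10 and Slco genes, other hepatocyte transporters, transcription factors and receptors, male-biased, female-biased and acute phase genes, and markers of hepatocytes, cholangiocytes, macrophages, stellate cells, endothelial cells and lymphocytes. Prom1, Cux2 and Fgb each stand in more than 1 list. Some genes of these lists are not reported by name here.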

Additional observations from a re-analysis of the deposited data

Results flagged for a closer look

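Of 40 groups of 4 mice checked (5 members in 8 groups), 5 had 1 mouse far from the other 3, where chance flags about 1 in 20 groups. The chow-fed WT male replicate 1 gave 3 of them, and lay low at 152 CPM for Slco1a1 (others 613 to 638), at 36.7 CPM for Slco1a4 (others 85.7 to 91.2) and at 267 CPM for Slco1b2 (others 1309 to 1459.9). Its gap to the nearest mouse, as a part of the range of the group, was 0.948, 0.899 and 0.874. In KO females on SC-435, replicate 4 lay high for Slco1a1 at 47.6 CPM against 5.98 to 12.8 CPM. In chow-fed KO females, replicate 4 lay high for Slco2b1 at 195 CPM against 102 to 114 CPM. No interaction of a member passed in the edgeR fits.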

How the results depend on the processing

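Results rest on 4 mice a group, and chow-fed WT male replicate 1 and chow-fed KO female replicate 4 decided several calls, given beside them in the report. Of the log2 fold changes refitted under the other settings, 488 kept direction and side of the threshold, 45 came past it, 13 lost it and 14 changed sign. Of those refitted without 1 mouse, 720 kept both, 16 came past it, 30 lost it and 34 changed sign. None of the sign changes was of a value that passed, and the cause was not tested. Depth limits no member, since the lowest count was 259.

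Counts of members that passed moved as follows. Shares of all genes under the other settings or without 1 mouse are not given here, so a higher count has no background beside it. For KO against WT females on chow, 2 passed, against 1 with library size only, 4 with no filter on low counts, 4 with DESeq2 and 4 with voom, and 1 to 5 without 1 mouse. For the males 0 passed, against 1 with no filter, 2 with DESeq2, 3 with all 32 libraries in 1 fit and 5 with voom, and 0 to 1 without 1 mouse. For SC-435 against chow in KO females 2 passed, against 1 with library size only, 1 with all 32 libraries, 3 with DESeq2, 3 with no filter and 4 with voom, and 0 to 4 without 1 mouse. In KO males 3 passed, against 4 with DESeq2, 4 with voom and 2 with all 32 libraries, and 0 to 4 without 1 mouse. In WT males voom passed 1. For treated KO against chow-fed WT mice the count without 1 mouse was 0 to 2 in females and 0 to 1 in males, and voom passed 3 in males. For KO against WT females on SC-435 1 passed, against 0 with library size only, 0 with all 32 libraries and 2 with voom, and 0 to 2 without 1 mouse. For females against males among chow-fed WT mice 0 passed, against 2 with DESeq2, 2 with all 32 libraries and 3 with voom, and 0 to 2 without 1 mouse. The interaction of genotype and diet passed 1 member with DESeq2 and 1 with voom in females, with 0 to 2 without 1 mouse, and 1 and 2 in males.

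The replicate numbers did not pair the mice: in 0 of 12 comparisons did every same-numbered pair correlate above 0.1. With the replicate block, 1 member passed instead of 3 for SC-435 in KO males, 1 instead of 2 for females against males among chow-fed KO mice, and 2 instead of 1 for KO against WT females on SC-435. For KO against WT females on chow 2 still passed but they were other members: Slco1a1 (adjusted p = 0.0694) and Slco1b2 (0.0595) no longer passed and Slc10a1 (0.0159) and Slco1a4 (0.0485) did. For SC-435 in KO females Slco1b2 no longer passed (0.0766) and Slco1a4 did (0.0322). The block turned the sign of Slco1a1 for SC-435 in KO males (0.034), of Slco1b2 between the sexes in chow-fed WT (0.15) and KO mice (0.026), and of Slco1b2 in the interaction of sex and genotype (-0.073).

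Voom turned Slco1a4 for SC-435 in WT females (0.052), Slco1b2 in treated KO against chow-fed WT males (-0.20), Slc10a1 in KO against WT males on SC-435 (-0.056), Slc10a1 (-0.32) and Slco2b1 (-0.083) between the sexes in chow-fed KO mice, Slc10a1 in the interaction of sex and genotype (-0.19) and Slco2b1 in that of sex and diet (0.17). Library size only turned Slc10a1 (0.047) and Slco1b2 (0.0041) between the sexes in chow-fed WT mice, and Slco1b2 in chow-fed KO mice (0.040). It also moved 5 of the group means of the members by more than 1 SD.

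Without 1 mouse, these log2 fold changes crossed 0. For Slc10a1 they ran from -0.020 to 0.064 in KO against WT females on SC-435, -0.079 to 0.12 in the males, -0.25 to 0.21 between the sexes in chow-fed KO mice, and -0.13 to 0.33 in the interaction of sex and genotype. For Slco1a1 they ran from -1.36 to 0.051 with SC-435 in KO females, -0.34 to 0.13 in KO males, -0.045 to 1.42 in the female interaction of genotype and diet, and -1.29 to 0.13 in that of sex and diet. For Slco1a4 they ran from -0.16 to 0.084 with SC-435 in WT females. For Slco1b2 they ran from -0.12 to 0.019 in treated KO against chow-fed WT females, -0.27 to 0.22 in the males, -0.077 to 0.42 with SC-435 in WT males, -0.38 to 0.11 and -0.16 to 0.13 between the sexes in chow-fed WT and KO mice, and -0.15 to 0.35 in the interaction of sex and genotype. For Slco2b1 they ran from -0.016 to 0.15 with SC-435 in WT females, -0.42 to 0.00079 in treated KO against chow-fed WT males, -0.14 to 0.21 between the sexes in chow-fed KO mice, and -0.14 to 0.21 in the interaction of sex and diet.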
